A study of Mus musculus with 281 samples.

Results

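The inward rectifier potassium channel genes of the Kcnj family were followed through the cell types of the mouse stria vascularis. The 9 genes were chosen by name from the gene table of the study: Kcnj10, Kcnj16, Kcnj13, Kcnj15, Kcnj2, Kcnj12, Kcnj8, Kcnj11 and Kcnj14, of 47752 genes in all. The study asked which cells of the stria carry the genes behind Pendred syndrome, the deafness caused by loss of the anion exchanger pendrin (Slc26a4), and what changes in them when pendrin is missing. Single cells were dissociated with collagenase from the stria of male mice on the 129S6 background, picked one at a time with a glass micropipette and profiled with Smart-Seq2, which copies and amplifies polyadenylated RNA along its full length. The titles of the cells gave 3 groups. The profile names carry 4 dates, taken here as run dates, which is a reading of the names. The Slc26a4+/+ cells (WT, ages P22 to P42) numbered 52, 26, 75 and 19 on dates 1 to 4. The other cells were 40 of Slc26a4+/- mice (HET, P26 to P33), all of date 4, and 69 of Slc26a4-/- mice (KO, P24 to P44), with 1, 46 and 22 on dates 1, 2 and 4. No group carried a further allele, and none was treated with an agent. Cells were picked by hand, so the numbers of each type do not give its share in the tissue. The labels tie no cell to a mouse, so each genotype counted as 1 sample, cells are not replicates of a genotype, and the differences between genotypes and between cell types are given as sizes with their spread, with no test.

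Inward rectifier channels are tetramers that pass potassium more easily into the cell than out of it and hold the membrane near the potassium potential. KCNJ10 (Kir4.1) in the intermediate cells of the stria lets potassium out into the narrow intrastrial space, the step that generates the endocochlear potential, and mutations in it also cause deafness. KCNJ16 (Kir5.1) gives little current by itself and joins KCNJ10 in channels that close when the cell turns acid, KCNJ13 (Kir7.1) is known from the retinal pigment epithelium, KCNJ15 (Kir4.2) is a close relative of KCNJ10, KCNJ2, KCNJ12 and KCNJ14 are strong rectifiers, and KCNJ8 and KCNJ11 are the pores of channels closed by ATP.

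The shallowest cell had 1848 estimated counts, the deepest 7932729 and the median cell 1312950, and 20 cells had fewer than 100000. Levels are counts scaled to the same total in each cell (CPM). For comparing one gene with another, TPM, which are scaled by transcript length as well, were used. Median depth rose from 291155 counts on date 1 to 2346920 on date 4. Clustering without any Kcnj gene gave 88 intermediate-like (IMC-like, 41 +/+, 20 +/- and 27 -/-), 36 root-like (RC-like, 17, 6 and 13), 34 spindle-like (SC-like, 23, 2 and 9) and 21 marginal-like (MC-like, 14, 2 and 5) cells. The pericyte gene Rgs5 and the basal cell gene Cldn11 stood among the leading genes of the SC-like cells. A cluster of 85 cells led by the blood genes Hbb-bs, Hba-a1, Lyz2 and Mpo and a cluster of 17 cells led by Crhbp received no name. In the cluster of 85 cells the median sum of erythroid markers was 43.6 CPM and that of IMC markers 58012 CPM. The blood genes thus led it through part of its cells and do not name it. RC-like and SC-like cells together are called pendrin cells, 40 +/+, 8 +/- and 22 -/-. That name follows the clusters and does not mean that Slc26a4 RNA was found in each cell. At least 10 counts of Slc26a4 were present in 9 of 17 +/+, 2 of 6 +/- and 7 of 13 -/- RC-like cells. Among SC-like cells 17 of 23 +/+, 2 of 2 +/- and 4 of 9 -/- cells reached that limit. RNA of the targeted gene did not separate the genotypes: median Slc26a4 in RC-like cells was 33.5 CPM in +/+ and 1042 CPM in -/-, and in SC-like cells 692 CPM in +/+ and 24.5 CPM in -/-. Which part of Slc26a4 the allele removes is not given in the labels, so this RNA does not check them.

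Over all cells, 5 of the 9 genes held nearly all counts of the set. Kcnj10 had 773070 estimated counts in 98.2% of cells, Kcnj13 145971 in 74.4%, Kcnj16 45024 in 45.2%, Kcnj15 8789 in 29.2% and Kcnj2 946 in 28.8%. Kcnj12 had 7 counts in 7 cells, and Kcnj8, Kcnj11 and Kcnj14 stood at 0 in the gene table. Sequence upstream of the 3 most abundant genes is shown because they divided between cell types, Kcnj10 and Kcnj13 in IMC-like cells and Kcnj16 in pendrin cells. The letters are RefSeq's for GRCm38.p6, 250 bases before to 50 bases after the start of the transcript that held all or most counts of the gene, which starts at the same base in both annotations. The windows are chr1:172340960-172341259 on the + strand, chr1:87394680-87394979 on the - strand and chr11:111023610-111023909 on the + strand, and capitals mark a pigment-cell E-box (CATGTG, or CACATG on the other strand) or a SOX motif (ACAAAG, or CTTTGT).
Kcnj10: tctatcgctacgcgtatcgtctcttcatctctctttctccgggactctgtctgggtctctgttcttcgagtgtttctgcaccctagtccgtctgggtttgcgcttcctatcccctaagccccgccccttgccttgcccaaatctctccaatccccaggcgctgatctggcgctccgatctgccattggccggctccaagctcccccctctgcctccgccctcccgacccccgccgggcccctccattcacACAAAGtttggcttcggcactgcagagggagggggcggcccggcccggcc
Kcnj13: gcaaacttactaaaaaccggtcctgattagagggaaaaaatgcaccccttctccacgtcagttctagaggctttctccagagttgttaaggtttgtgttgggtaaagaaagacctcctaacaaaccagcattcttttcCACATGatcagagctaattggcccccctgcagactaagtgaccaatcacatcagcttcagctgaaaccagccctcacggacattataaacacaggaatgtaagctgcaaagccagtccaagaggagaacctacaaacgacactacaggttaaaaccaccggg
Kcnj16: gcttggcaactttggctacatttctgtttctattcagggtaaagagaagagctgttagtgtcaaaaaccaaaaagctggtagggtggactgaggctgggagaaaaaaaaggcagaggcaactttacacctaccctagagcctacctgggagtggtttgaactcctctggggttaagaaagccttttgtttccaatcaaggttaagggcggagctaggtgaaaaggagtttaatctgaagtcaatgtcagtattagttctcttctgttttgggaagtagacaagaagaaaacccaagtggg
Both strands were searched for CACGTG and CATGTG, the E-boxes of the pigment-cell factor MITF, for ACAAAG, a SOX motif, and for CCAAT. Position 1 is the first base of the transcript, and a position is that of the first base of a match. The Kcnj10 window held ACAAAG at position 1 and CCAAT at -104 and -67, the Kcnj13 window CATGTG at -112 and CCAAT at -96 and -71, and the Kcnj16 window CCAAT at -60 alone. Of 32851 mouse promoters of the same length, 20.4% held one of both E-boxes, 18.7% ACAAAG and 37.4% CCAAT, so each match is common. GC content was 63.7% for Kcnj10, 46% for Kcnj13 and 44% for Kcnj16, against a median of 52.7%.

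Kcnj10 (chromosome 1, 172341210 to 172374085) was the most abundant member and was high in every IMC-like cell. Its level in +/+ IMC-like cells ran from 770 CPM through a median of 3451 CPM to 6663 CPM, with a mean of 3291 ± 1475 CPM (SD over 41 cells). No other named cell type came near this level in the mean. In +/+ RC-like cells it ran from 2.01 through a median of 54.8 to 1193 CPM (mean 217.7 ± 311, SD, 17 cells). In +/+ MC-like cells it ran from 1.12 through 20.9 to 532 CPM (mean 93.6 ± 156.2, SD, 14 cells), and in +/+ SC-like cells from 0 through 3.30 to 541 CPM (mean 66.1 ± 140, SD, 23 cells). The highest SC-like value was 1 count in the shallowest cell, of 1848 counts, and without it the SC-like mean was 44.5 CPM. The mean was thus 3.91 log2 units higher in IMC-like than in RC-like cells, while RC-like, MC-like and SC-like cells overlapped over nearly their whole ranges. Of the 91 SC-like, RC-like and MC-like cells of all genotypes, 6 reached the lowest IMC-like cell. All of these were RC-like, 1 from +/+ mice and 5 from -/- mice. Within the 88 IMC-like cells of all genotypes the highest cell was 9.67-fold above the lowest, a coefficient of variation of 42.7%. Collections (the cells of 1 date, genotype and age) differed as well: over the 12 collections with 2 or more +/+ IMC-like cells the mean lay between 1931 and 4940 CPM, and the lowest and highest cell were each the only one of a collection. All Kcnj10 counts belonged to its single annotated transcript, of 5407 bases.

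**Figure D1:**
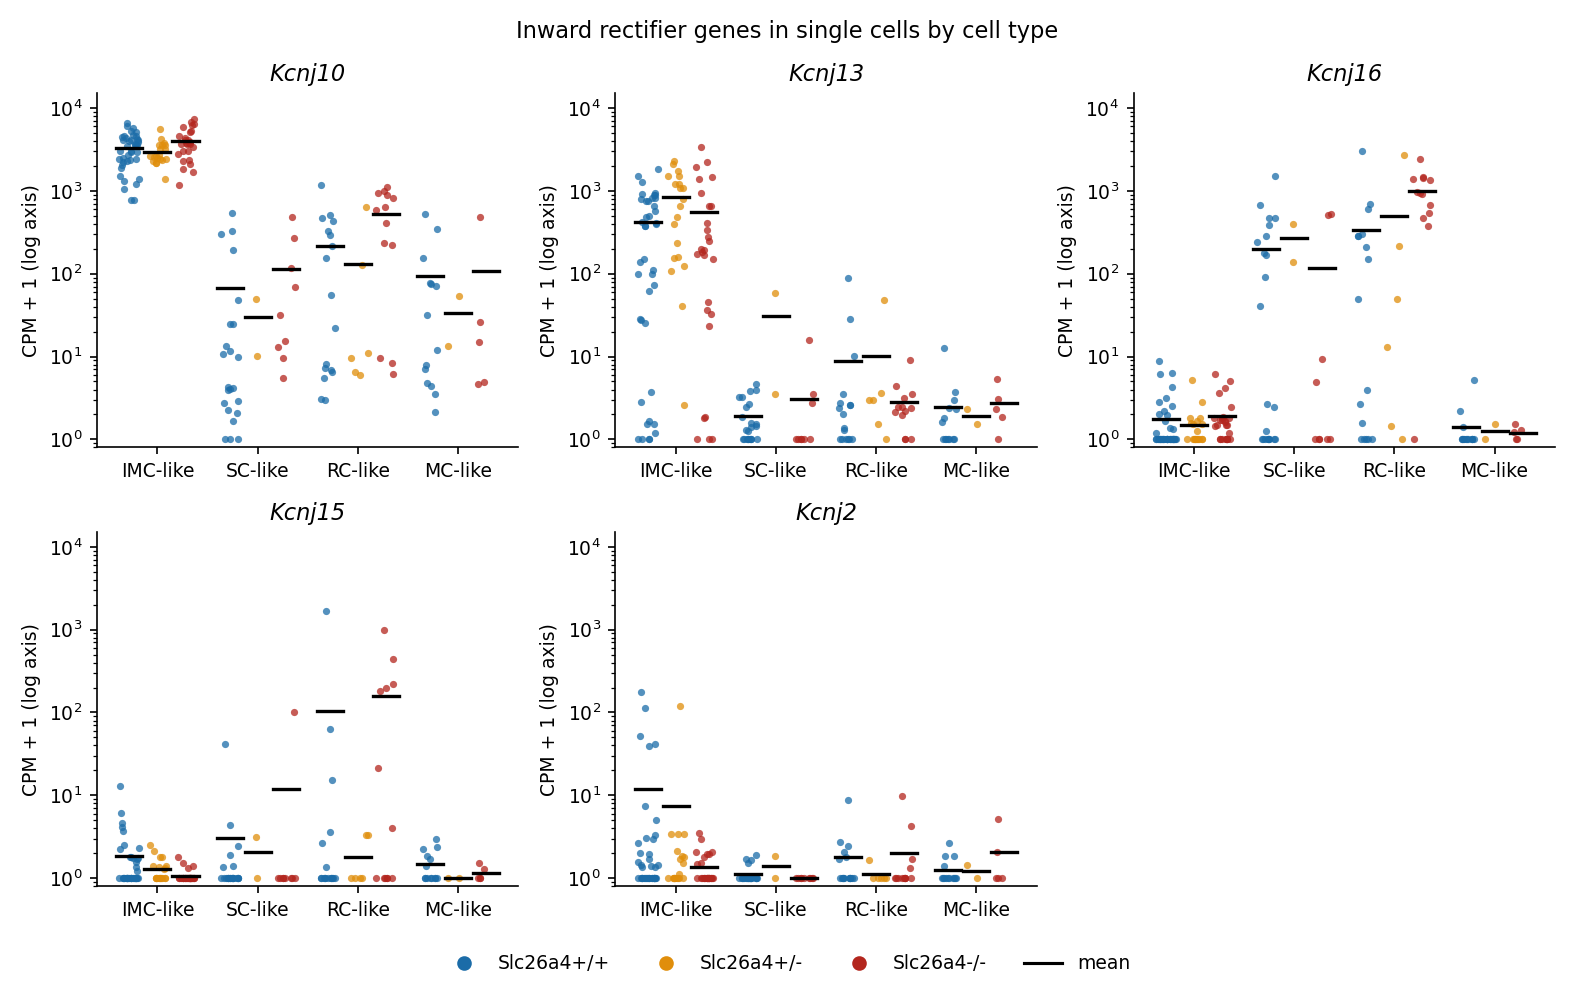
Level of 5 Kcnj genes in single cells of 4 cell types, on a log axis of CPM + 1. Each point is a cell, coloured by genotype, and each bar is the mean of a genotype. Kcnj10 and Kcnj13 stand highest in IMC-like cells, where every cell has at least 770 CPM of Kcnj10. Kcnj16 is high in part of the RC-like and SC-like cells, which cannot be ranked, and Kcnj15 reaches 100 CPM in 6 RC-like cells, of which 1 is +/+. The highest SC-like cell has 99.8 CPM of Kcnj15.

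Kcnj13 (chromosome 1, 87386363 to 87394729) shared the IMC-like cells with Kcnj10 but not their evenness. In +/+ IMC-like cells it ran from 0 through a median of 375 CPM to 1821 CPM (mean 420 ± 464, SD, 41 cells). Its coefficient of variation over the 88 IMC-like cells was 120%. Of these cells, 60 had 100 CPM or more, 12 lay between 10 and 100 CPM and 16 were under 10 CPM, so cells with and without much Kcnj13 stood side by side in one cluster. In the other named cell types its mean in any genotype stayed between 0.895 and 30.1 CPM, and in +/+ cells it was 5.56 log2 units higher in IMC-like than in RC-like cells. Since the Kcnj13 transcript is only 1270 bases long, CPM understate it against Kcnj10. Per length, mean Kcnj10 in +/+ IMC-like cells was 881 TPM and mean Kcnj13 563 TPM, and in 28 of the 88 IMC-like cells Kcnj13 exceeded Kcnj10 in TPM. Within IMC-like cells both genes did not rise and fall together (Pearson r = -0.21 of log2(CPM + 1) over 88 cells, which share genotypes, run dates and days, given as a description). Kcnj13 lies inside Gigyf2 on the other strand, and 623 of its 1270 exon bases overlap Gigyf2 exons. The protocol keeps no strand, so part of these reads could belong to either gene. Gigyf2, a regulator of translation, had means of 59.4, 151.97 and 46.7 CPM in +/+, +/- and -/- IMC-like cells, and its r with Kcnj13 over the 88 cells was 0.45. Its part in the Kcnj13 level was not tested.

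Kcnj16 (chromosome 11, 110968033 to 111027968) was a gene of the pendrin cells. In +/+ RC-like cells it ran from 0 through a median of 48 CPM to 3069 CPM (mean 333 ± 738, SD, 17 cells). In +/+ SC-like cells it ran from 0 through 1.67 to 1497 CPM (mean 195.9 ± 345, SD, 23 cells). These ranges overlap throughout, the difference of means was 0.76 log2 units, and without the cells of run date 4 it turned to -0.14, so RC-like and SC-like cells cannot be ranked. Levels of 100 CPM or more were reached by 8 of 17 RC-like and 9 of 23 SC-like +/+ cells. In IMC-like cells, by contrast, the highest of 88 cells had 7.87 CPM and the +/+ mean was 0.778 CPM. MC-like cells stood at a mean of 0.415 CPM in +/+ mice. Of the counts in the 44 cells with at least 10, 81% were assigned to the transcript that starts at base 111023860, behind the window shown, and this was the highest transcript in 28 of them. The transcripts that start upstream at bases 110997487 and 110968033 and reach the same end took 11.2% and 7.04%.

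Kcnj15 (chromosome 16, 95257558 to 95300260) was at or near 0 in most cells. The 6 cells with 100 CPM or more in the 4 named types were all RC-like, but the highest SC-like cell lay just below, at 99.8 CPM. In +/+ RC-like cells Kcnj15 ran from 0 through a median of 0 to 1684 CPM (mean 103.8, 17 cells). The cell at 1684 CPM held 95.4% of that sum, and without it the mean was 5.05 CPM. The difference between RC-like and SC-like means then fell from 5.10 to 0.99 log2 units. That cell had 153.97 CPM of Kcnj10 but 0.585 CPM of Kcnj16. Levels of 100 CPM or more were found in 6 of the 36 RC-like cells, that one and 5 from -/- mice with 182.3, 195.4, 222.4, 438 and 998 CPM. These 5 cells also had 684 CPM or more of Kcnj16. Kcnj15 shares 333 of its 6313 exon bases with Gm49643 on the other strand.

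Kcnj2 (chromosome 11, 111066164 to 111076821), the gene for a strong rectifier, was close to the limit of these data. Its mean in +/+ IMC-like cells was 10.8 CPM (0 to 177.8 CPM, median 0), and its mean in the other named types of any genotype was at most 1.05 CPM. At least 10 counts were found in 7 IMC-like cells, 6 of run date 3 and 1 of run date 4, with 177.8, 117.6, 111.7, 51.4, 40.2, 38 and 6.43 CPM. Date 3 held no -/- cells, and -/- IMC-like cells had at most 2.49 CPM of Kcnj2, so run date and genotype cannot be told apart for it. Kcnj12, which encodes another strong rectifier, had at most 1 count in a cell. Kcnj16 and Kcnj2 are neighbours, with 38195 bases between them, yet their cells differed.

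Kcnj8 and Kcnj14 had no count in the gene table or in the transcript files. Over the counts of all cells together, a count of 0 allows a level of up to 0.00673 CPM, for counting error only. It says less of single cells, of which the shallowest could not show a low level. Kcnj11 also stood at 0 in the gene table, but its transcripts had 76 estimated counts in 6 cells. There were 37 in 1 +/+ RC-like cell and 30 in 1 +/- RC-like cell. A further 6 were in 1 -/- cell of the unnamed cluster led by blood genes, and 1 in each of 3 others. Of these 76 counts, 38 were on a transcript that codes for protein and 38 on one that does not. The receptors that complete the channels closed by ATP were low as well: Abcc8 had no count in +/+ cells of the named types, and Abcc9 had at most 1.5 CPM in the mean. Of the other 6 Kcnj genes in the table, Kcnj9, which lies 11891 bases from Kcnj10, was detected in 11 cells and Kcnj5 in 56, while Kcnj4 had 28 counts in all, Kcnj1 26, Kcnj3 12 and Kcnj6 1.

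To set the members beside other genes, a gene was called for a cell type when its mean in +/+ cells was highest there, at least 2-fold above the next type and at least 10 CPM. Of 11391 genes with 10 CPM in at least 1 type, 8.02% were called for IMC-like cells, and so were Kcnj10, Kcnj13 and Kcnj2 of the 5 members at that level. For RC-like cells 11.6% of genes and Kcnj15 were called, and Kcnj16 missed the rule. For SC-like cells 8.43% and for MC-like cells 6.15% of genes were called, but no member. Kcnj2 passed the limit of 10 CPM by IMC-like cells alone, and Kcnj15 was called by 1 cell.

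Since KCNJ16 needs a partner, it was asked which cells held both Kcnj10 and Kcnj16. At 100 CPM or more of each, a limit chosen after the values were seen, both were found in 4 of 17 +/+ RC-like cells (23.53%, exact 95% binomial interval 6.81 to 49.9%), 1 of 6 +/- cells and 9 of 13 -/- RC-like cells (69.2%, 38.6 to 90.9%). From 10 counts these were 6 of 17 (35.3%, 14.2 to 61.7%), 4 of 6 and 11 of 13 (84.6%, 54.6 to 98.1%). After thinning every cell to 100000 counts, both genes were detected in 4 of 16 +/+ (25%, 7.27 to 52.4%), 3 of 6 +/- and 12 of 13 -/- RC-like cells (92.3%, 64 to 99.8%). The share was thus higher in -/- than in +/+ RC-like cells by each of these limits. The intervals treat as independent cells that may come from the same mouse, so whether they overlap does not compare the genotypes. From 1 count the +/+ share was 12 of 17 RC-like cells and that of all IMC-like cells 41 of 88. After thinning, that of IMC-like cells was 10 of 88, and from 10 counts 2 of 88 IMC-like cells held both, so single counts made most of the detection in IMC-like cells. SC-like cells with both at 100 CPM or more were 3 of 34, MC-like and IMC-like cells 0 of 21 and 0 of 88. Median depth was 994100 counts in +/+ and 2140195 counts in -/- RC-like cells, and its part in the difference was not tested. Within run date 4, 1 of 6 +/+, 1 of 6 +/- and 6 of 7 -/- RC-like cells held both at 100 CPM or more, and within date 2, 0 of 1 +/+ and 3 of 6 -/- cells.

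Kcnj10 was detected in all 36 RC-like cells, at widely spread levels. Split at 100 CPM, the limit chosen after the values were seen, it was 126.9 to 1193 CPM in 20 cells. In the other 16, of which 9 had 10 counts or more, it was 2.01 to 54.8 CPM. Kcnj16 reached 100 CPM in 14 of the 20 and in 8 of the 16. The sum of 12 IMC markers (Dct, Tyr, Pmel and others, no Kcnj gene) in the same cells had a median of 797 CPM (42.4 to 15650) in the 20 cells and 309 CPM (73.4 to 3369) in the 16, against 73807 CPM (15702 to 147791) in IMC-like cells. IMC-like cells had 23.2 CPM of these markers for each CPM of Kcnj10. Of the cells with 100 CPM or more of Kcnj10, 19 of 20 RC-like and 6 of 7 SC-like cells had less than that. Those cells were picked by their high Kcnj10, which favours a low marker sum for each CPM of it, so nothing is concluded from this count. Each of the 36 RC-like cells had at least 10 counts of the melanin genes Dct, Tyr and Pmel together. By genotype, the median sum in RC-like cells was 498 CPM in +/+, 365 CPM in +/- and 426 CPM in -/- mice.

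**Figure D2:**
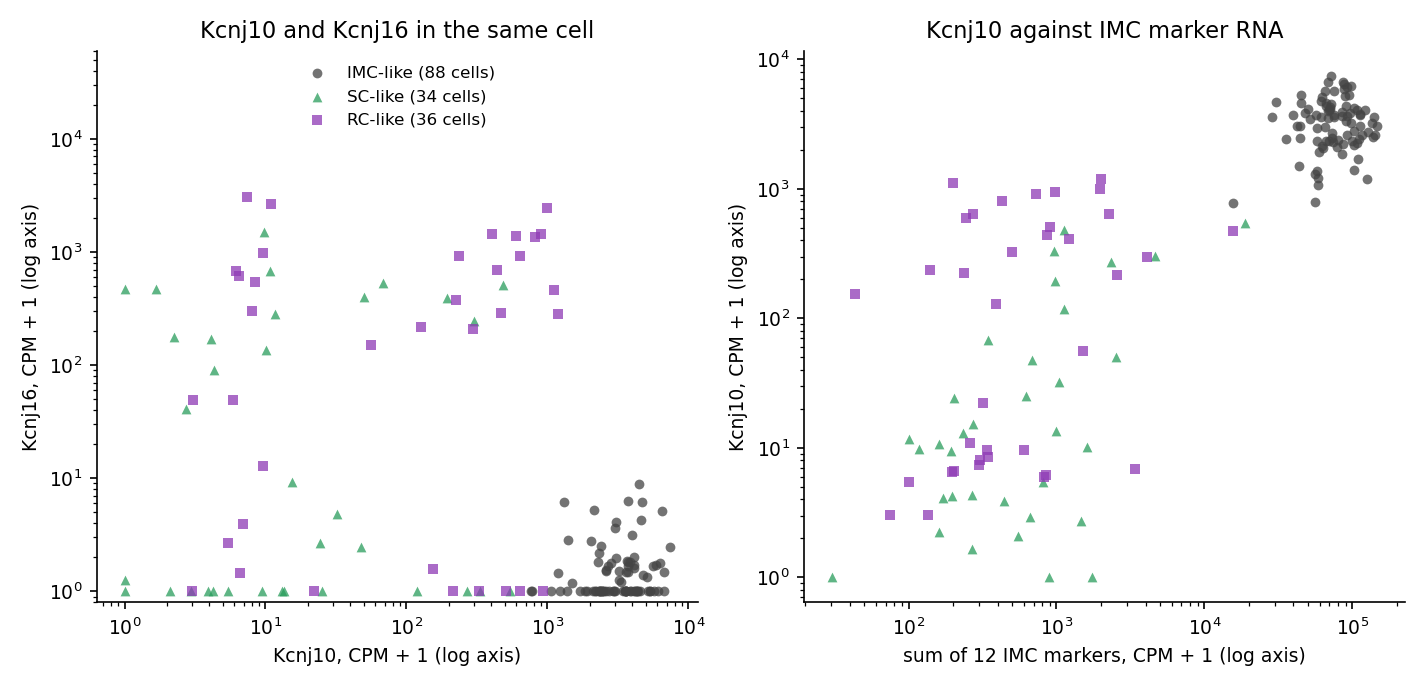
Kcnj10 (horizontal axis) against Kcnj16 (vertical axis), and the sum of 12 IMC markers (horizontal axis) against Kcnj10 (vertical axis), in single cells. Both panels have log axes of CPM + 1 and show 88 IMC-like, 36 RC-like and 34 SC-like cells. IMC-like cells hold Kcnj10 with at most 7.87 CPM of Kcnj16, while RC-like cells hold both genes, one or neither, and their IMC marker sums (42.4 to 15650 CPM) lie below those of all IMC-like cells (15702 CPM or more).

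The level of Kcnj10 in IMC-like cells changed little between genotypes. In +/- cells it ran from 1390 through a median of 2609 to 5652 CPM (mean 2957 ± 937, SD, 20 cells). In -/- cells it ran from 1185 through 3738 to 7447 CPM (mean 3950 ± 1627, SD, 27 cells). The ranges of all 3 genotypes overlap. The log2 ratio of means (with 1 CPM added) was 0.26 for -/- over +/+ and -0.15 for +/- over +/+. Within run date 2 the former was 0.14 (16 -/- and 5 +/+ cells) and within date 4 it was -0.17 (11 and 7 cells), so not even its sign held. In collections of 2 or more cells, means lay between 2487 and 5203 CPM in -/- (7 collections) and between 2537 and 3190 CPM in +/- mice (3), against 1931 to 4940 CPM in +/+ mice. Both genotypes were collected on 2 dates, on which the log2 ratio of -/- to +/+ was 0.24 (3 and 3 cells) and -0.83 (4 cells and 1 cell). By the rule of at least 2-fold with a mean of 10 CPM, 11.2% of 8865 genes were higher and 15.5% lower in -/- IMC-like cells, but neither of the 2 members at that level, Kcnj10 and Kcnj13.

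Kcnj13 in IMC-like cells went with genotype differently on each run date. In +/- cells it ran from 1.58 through a median of 721 to 2290 CPM (mean 846 ± 723, SD, 20 cells). In -/- cells it ran from 0 through 191.6 to 3381 CPM (mean 560 ± 835, SD, 27 cells). On date 2 the mean was 134.99 CPM in 16 -/- and 253.8 CPM in 5 +/+ cells, a log2 ratio of -0.91. On date 4 it was 1179 CPM in 11 -/- and 195.9 CPM in 7 +/+ cells, a log2 ratio of 2.58, and the 20 +/- cells were 2.10 higher than the same +/+ cells, on which date 20.9% of genes were higher by 2-fold in -/- and 20.1% in +/- cells. Among -/- cells, the means of the 5 collections of date 2 (78.3 to 217.1 CPM) all lay below those of the 3 collections of date 4 (336 to 1579 CPM). On the 2 collection dates with both genotypes the log2 ratio was -0.93 and 1.66. The pooled ratios were 0.41 for -/- and 1.01 for +/- cells over +/+. For +/- cells Kcnj13 was past the rule of 2-fold, with 9.53% of 8762 genes higher and 15.8% lower. Without 1 collection of +/- cells at P33 that ratio was 0.55, and without 1 collection of -/- cells at P29 the ratio of -/- cells was -0.13. Means of collections overlapped, from 0 to 873 CPM in +/+, 123.5 to 1188 CPM in +/- and 78.3 to 1579 CPM in -/- IMC-like cells.

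**Figure D3:**
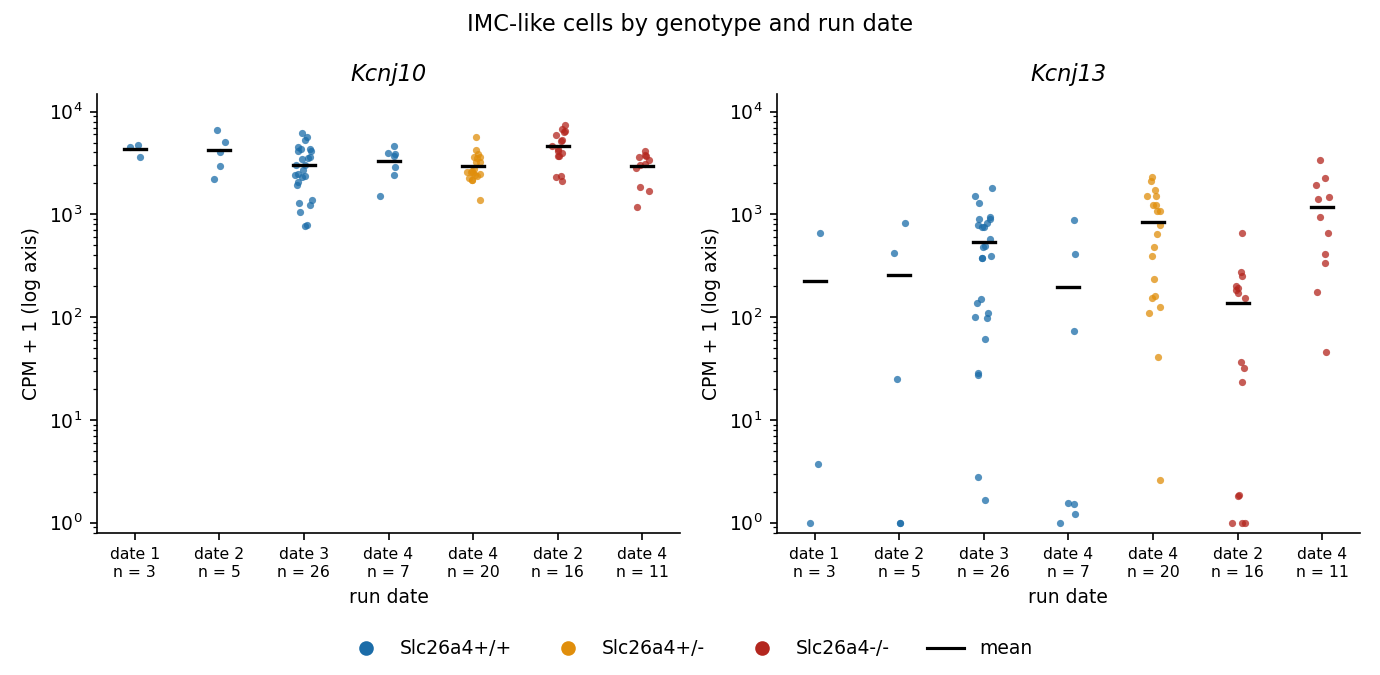
Kcnj10 and Kcnj13 in IMC-like cells by genotype and run date, on a log axis of CPM + 1, with each cell as a point and the mean as a bar. Mean Kcnj10 lies between 2924 and 4656 CPM in all 7 columns, whereas mean Kcnj13 in -/- cells is 134.99 CPM on date 2 and 1179 CPM on date 4.

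In pendrin cells, all 3 members with at least 10 CPM were higher in -/- than in +/+ mice. Kcnj10 had a mean of 130.5 CPM in 40 +/+ cells (0 to 1193, median 9.27) and 358 CPM in 22 -/- cells (4.45 to 1116, median 228.5), a log2 ratio of 1.45. Kcnj16 had means of 254.1 CPM (0 to 3069, median 21.3) and 637 CPM (0 to 2438, median 521), a log2 ratio of 1.32. Kcnj15 had means of 45.3 CPM (0 to 1684) and 98.2 CPM (0 to 998), with medians of 0 in both, a log2 ratio of 1.10. The ranges overlap for each gene. By the rule of 2-fold, 14.0% of 9616 genes were higher and 19.8% lower in -/- pendrin cells, with a median log2 ratio over all genes of -0.11. The 3 comparisons share the same +/+ cells. Without the highest Kcnj15 cell the Kcnj15 ratio was 4.53, without its collection (+/+ cells at P30) it was 4.51, and without 1 collection of -/- cells at P29 it was 0.70.

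Within run dates only part of these differences remained. On date 4 (7 -/- and 9 +/+ cells) Kcnj10 was 517 against 66.4 CPM, a log2 ratio of 2.94, Kcnj15 94.7 against 2.00 CPM, a ratio of 4.99, and Kcnj16 873 against 539 CPM, a ratio of 0.69, where 24.7% of 9214 genes were higher. On date 2 (15 and 3 cells) the ratios were 0.36 for Kcnj10 and 0.08 for Kcnj16, while Kcnj15 had a mean of 99.8 CPM in -/- and no count in the 3 +/+ cells, where 51.3% of 7968 genes were higher. The median of all genes on date 2 was 1.17, so relative to other genes Kcnj10 and Kcnj16 were not higher there. Mean levels by collection overlapped too: Kcnj16 lay between 0 and 1497 CPM over 19 +/+ collections (median 98.6) and between 361 and 1453 CPM over 7 -/- collections (median 764), and Kcnj10 between 0 and 596 CPM (median 8.82) and between 8.58 and 904 CPM (median 352). Only 1 date held pendrin cells of both genotypes, 1 cell of each, where Kcnj16 was 531 CPM in the -/- and 1497 CPM in the +/+ cell and Kcnj10 67.4 and 8.82 CPM.

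The mixture of cell types moved with these ratios, as 13 of 22 -/- but 17 of 40 +/+ pendrin cells were RC-like. Among RC-like cells alone, Kcnj10 ran from 5.14 through a median of 595 to 1116 CPM in 13 -/- cells (mean 529 ± 406, SD), a log2 ratio of 1.28 over +/+ RC-like cells. Kcnj16 ran from 0 through 930 to 2438 CPM (mean 996 ± 628, SD), a ratio of 1.58, and Kcnj15 from 0 through 3.06 to 998 CPM (mean 158.5), a ratio of 0.61. At least 100 CPM was reached in 10 of 13 -/- against 8 of 17 +/+ RC-like cells for Kcnj10 and in 12 of 13 against 8 of 17 for Kcnj16, where 20.5% of 9236 genes were higher and 26.3% lower. In 9 -/- SC-like cells the means were 111.6 CPM for Kcnj10 (4.45 to 480, median 31) and 117.02 CPM for Kcnj16 (0 to 531, median 0). Their log2 ratios over +/+ were 0.75 and -0.74, so in the pooled cells the higher Kcnj16 of -/- mice lay in RC-like cells. All 9 were of date 2, against 2 of 23 +/+ SC-like cells, and median depth was 561315 against 1820555 counts. Genotype, run date and depth thus cannot be told apart in the SC-like ratios. On date 4, where 28.5% of 9030 genes were higher, Kcnj10 and Kcnj15 of RC-like cells were past 2-fold (2.53 and 4.66) and Kcnj16 was not (0.43). Kcnj16 was found there at 373 to 1385 CPM in each of 7 -/- RC-like cells, whereas 6 +/+ cells spread from 0 to 3069 CPM and 6 +/- cells from 0 to 2679 CPM.

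**Figure D4:**
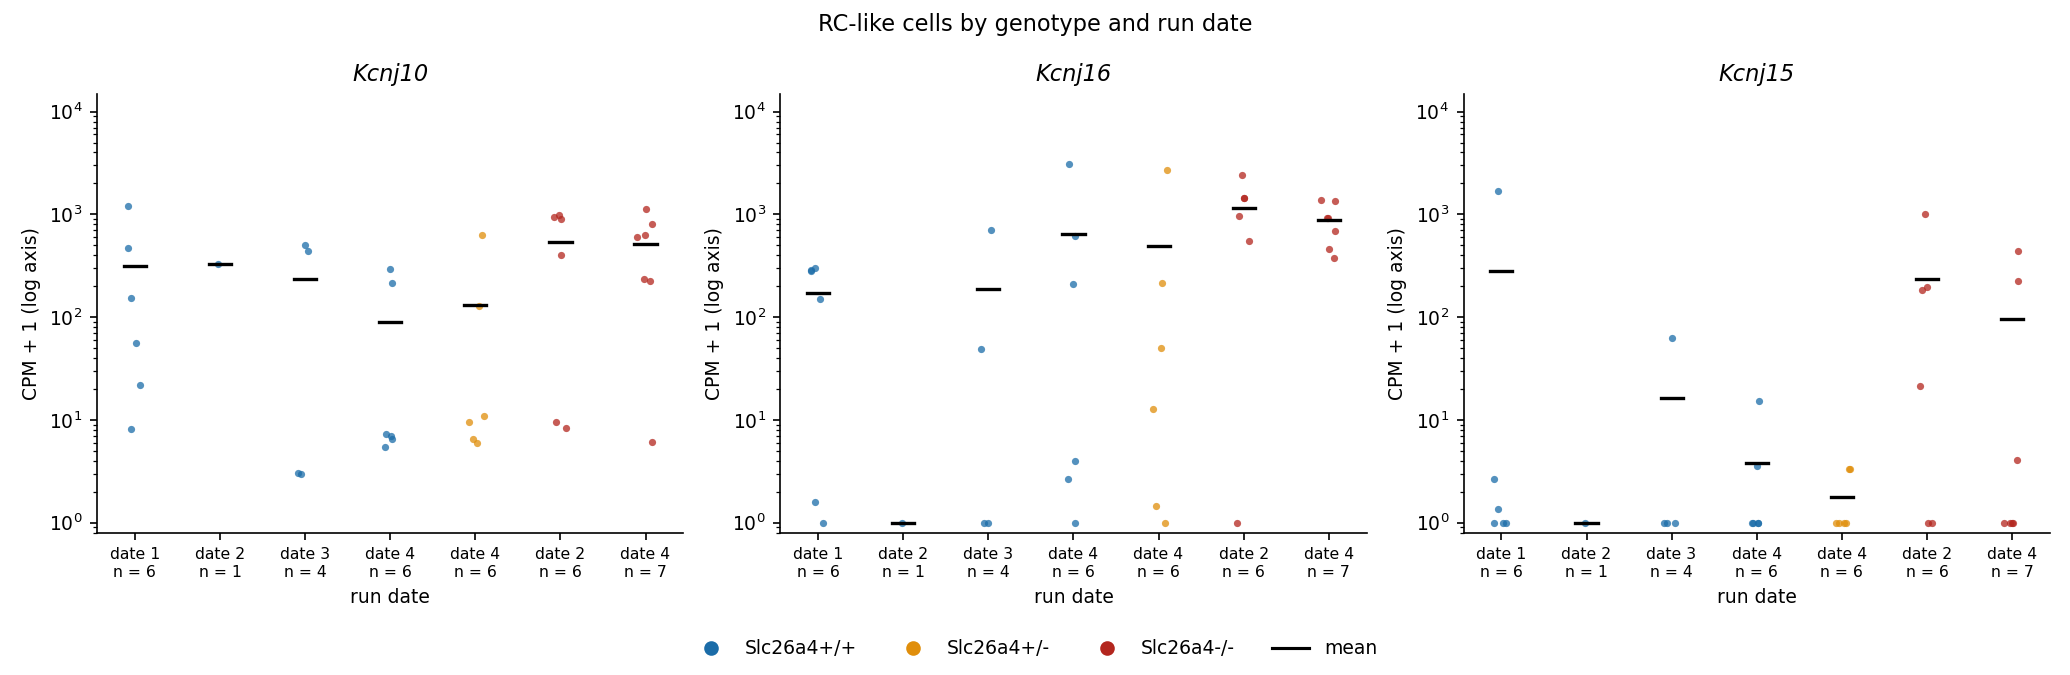
Kcnj10, Kcnj16 and Kcnj15 in RC-like cells by genotype and run date, on a log axis of CPM + 1, with each cell as a point and the mean as a bar. On date 4 the mean of Kcnj10 is 517 CPM in -/- and 88.4 CPM in +/+ cells, and all 7 -/- cells have at least 373 CPM of Kcnj16, while +/+ and +/- cells reach from 0 to higher values.

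In +/- pendrin cells no member stood apart in a way that held on date 4, the only date with +/- cells. Kcnj10 had a mean of 106.1 CPM over 8 cells (4.91 to 635, median 9.55), a log2 ratio of -0.30 over all +/+ cells and 0.67 over those of date 4. Kcnj16 had 437 CPM (0 to 2679, median 92.2), with ratios of 0.78 and -0.30. These ratios turned on single collections: without 1 of +/- cells at P33 that of Kcnj10 was -1.90, and without 1 of +/- cells at P28 it was 0.57 and that of Kcnj16 -1.34, while without 1 collection of +/+ cells at P34 that of Kcnj16 was 1.31. Kcnj15 had 0.849 CPM (0 to 2.34), a ratio of -4.65 and past the rule of 2-fold, by which 18.8% of 9582 genes were higher and 24.3% lower, but -1.21 without the highest +/+ cell and -0.70 on date 4.

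The genes that anchor KCNJ10 in the membrane or keep its channels open showed no common pattern with it. Of 10 anchoring genes, 2 were highest in IMC-like, 4 in MC-like, 3 in RC-like and 1 in SC-like +/+ cells. The 4 most abundant were Dag1 (dystroglycan, 581 CPM in IMC-like cells), Utrn (utrophin, 526 CPM in MC-like cells), Cav1 (caveolin, 220 CPM in IMC-like cells) and Dtna (dystrobrevin, 180 CPM in MC-like cells). Aqp4, the water channel found with KCNJ10 in glia, was found mainly in RC-like cells. Its mean there was 70.9 CPM in +/+, 59.9 CPM in +/- and 0.0294 CPM in -/- mice, and 4 of 17, 2 of 6 and 0 of 13 cells reached 10 counts. It had at least 10 counts in 3 of the 20 RC-like cells with 100 CPM or more of Kcnj10 and in 3 of the other 16. In -/- pendrin cells 0 of the 10 anchoring genes were higher and 3 lower by the rule of 2-fold (Aqp4, Cav1 and the scaffold gene Dlg4, with log2 ratios of -4.87, -2.88 and -1.12), beside 14.0% and 19.8% of all genes. On date 4 those of Aqp4 and Cav1 were -3.68 and -4.93, while that of Dlg4 was 1.77. In -/- IMC-like cells 1 of 9 was lower and 2 were higher, where 11.2% of all genes were higher and 15.5% lower. The higher genes were Cav1 (1.65, and 2.36 and 2.17 on dates 2 and 4) and Dlg4 (1.51, and 3.57 and 3.10). Dlg4 averaged only 4.96 CPM in this cell type of +/+ mice. It thus passed the limit of 10 CPM over both groups through the -/- cells alone. Its entry and its call as higher are therefore not independent. In +/- mice 0 of 8 passed the rule in IMC-like cells (9.53% of all genes higher and 15.8% lower), and in pendrin cells (18.8% and 24.3%) 1 of 10 was higher (Magi1, 1.30) and 4 lower (Dag1, Dlg1, Dlg4 and Cav1, -3.27 to -1.31).

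The 3 genes for the kinases that make PIP2, the lipid that all these channels need to open, were highest in 3 different cell types: Pip5k1a in IMC-like (25.3 CPM), Pip5k1b in MC-like (74 CPM) and Pip5k1c in RC-like cells (49 CPM). In -/- IMC-like cells 0 of 3 were higher and 2 lower (15.5% of all genes; Pip5k1a and Pip5k1b, -1.66 and -1.43), yet on date 2 their ratios were 0.07 and 1.81. In -/- pendrin cells Pip5k1a was higher (1.08) and the other 2 lower (-1.30 and -1.01), beside 14.0% of all genes higher and 19.8% lower. Within date 4, 0 of 3 were higher (24.7% of all genes) and 2 lower, for which the share of all genes is not given. Within date 2, with 3 +/+ cells, all 3 were higher (median log2 ratio 4.69), where 51.3% of all genes were. In +/- cells Pip5k1a was lower in IMC-like (-4.44) and higher in pendrin cells (2.73), and Pip5k1c lower in pendrin cells (-4.36). Of all genes, 15.8% were lower in +/- IMC-like cells, and 18.8% higher and 24.3% lower in +/- pendrin cells.

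Of 14 genes of potassium circulation through the stria, 9 were highest in MC-like, 4 in IMC-like and 1 in RC-like +/+ cells. Among them were Atp1b1 (12644 CPM in IMC-like cells) and Atp1b2 (11475 CPM in MC-like cells), subunits of the sodium pump, and Kcne1 (4361 CPM in MC-like cells), the subunit that slows the channel by which marginal cells secrete potassium. In -/- IMC-like cells 0 of 8 were higher (11.2% of all genes) and 2 lower (15.5%), Kcne1 (-4.18) and Slc12a2 (-1.62), the latter for the cotransporter that takes potassium up. Within date 4, 0 of 8 were higher (20.9% of all genes) and 2 lower, but within date 2, 1 of 7 was higher and 0 were lower. The other shares of all genes within these dates are not given, so these counts cannot be set against them. In -/- pendrin cells 2 of 13 were higher (14.0% of all genes), the connexin genes Gjb2 (1.69) and Gjb6 (1.30), and 5 lower (19.8%), among them Kcne1 (-6.46) and Slc12a2 (-1.19). On date 4 Kcne1 and Slc12a2 had ratios of -6.46 and -2.09, and Gjb2 and Gjb6 of 0.63 and 0.67. On date 2, 2 of 10 genes were higher (51.3% of all genes) and 1 lower in pendrin cells, so Kcne1 and Slc12a2 were not both past the rule there. The share of all genes lower on that date is not given. In +/- mice 0 were higher. There 3 of 8 were lower in IMC-like cells (Kcne1, Slc12a2 and Atp1b2), beside 15.8% of all genes, and 6 of 12 in pendrin cells, Kcne1, Slc12a2 and Atp1b2 among them, beside 24.3%.

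The genes whose level ran most like that of a member were sought among 10218 genes over all +/+ cells, by Pearson's r of log2(CPM + 1), a description in which cell type, depth and run date are shared by all points. For Kcnj10 they were Tyr (r = 0.89), Gpnmb (0.89), Dct (0.88), Hpse (0.87) and Met (0.87), of which Tyr and Dct make melanin. For Kcnj13 they were Tspan10 (0.68), Gpnmb (0.67), Alpl (0.65), Dct (0.64) and Hpse (0.64). Kcnj10 and Kcnj13 thus shared Gpnmb, Dct and Hpse, and their own r was 0.59 over these cells of all types, unlike the -0.21 within IMC-like cells. For Kcnj16 the r values were lower, with Tspan12 (0.58), Plat (0.56), Cobl (0.54), Prss36 (0.54) and Cldn23 (0.52), and its r with Kcnj10 was -0.23. For Kcnj15 they were Ucma (0.56), Epb41l3 (0.48), AA474331 (0.42), Ceacam16 (0.40) and Igfbp5 (0.38), and for Kcnj2 Slitrk1 led with 0.36.

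Of the unnamed clusters, the one led by blood genes held much Kcnj10. It ran there from 0 through a median of 2139 to 8899 CPM, and 60 of its 85 cells had 100 CPM or more. By their marker scores 53 of these 85 cells were nearest to IMCs, with a mean of 3633 CPM of Kcnj10 and 478 CPM of Kcnj13, and 24 nearest to MCs, with 261.8 and 30.2 CPM. A single cell of this cluster, with 121422 counts, had 1112 CPM of Kcnj16 beside 3558 CPM of Kcnj10. In the Crhbp-led cluster Kcnj10 reached 95.8 CPM at most, and Kcnj16 27.4 CPM.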

How the data were processed

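Per cell, the authors deposited estimated counts and TPM of 98492 mouse transcripts (mm10, GRCm38), which they had obtained with Kallisto (version and annotation release are not given in the sources used here), and for the series a gene table with estimated counts of 47752 genes, built by their own script. In 4209 of 4215 values of Kcnj genes the table equalled the transcript counts rounded down and summed, and the other 6 were those of Kcnj11. A further 17 columns of the gene table have no listed sample and were left out. All rows name a gene.

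Counts were scaled to CPM, and TPM were summed per gene through GENCODE M21 (GRCm38). Genotypes came from the sample titles. Run dates and collection dates were read from numbers in the profile names, so what they date is inferred. A collection is the cells of 1 date, genotype and age. Cells were clustered in Seurat 5.3.0 (R 4.3.3) on log-normalized counts (scale factor 10000, genes in at least 3 cells), with 2000 variable genes less 112 (all Kcnj genes, the pathway lists and genes of the study's claims), 10 PCs and a resolution of 0.8. A cluster was named where 80% of its cells scored highest for one marker list, most of its cells had 3 or more of those markers, and its 10 leading genes held no more markers of another type than of its own. The marker lists lean on genes the study found in these cells, and names may differ from those of the study. No cell was filtered, and as cells were picked singly, no doublet caller was run. Members and gene lists were chosen with earlier results of these data known. The genes named are the 9 members, the other 6 Kcnj genes as counts, the 5 genes most correlated with each member, and from each list those past 2-fold and the 4 highest, of which some are not reported here. Between genotypes, mean CPM were set against each other as log2 ratios after adding 1 CPM as pseudocount, among genes with a mean of 10 CPM over both groups weighted equally; such ratios understate changes of low genes. With 1 sample per genotype no test was run. Intervals are exact (Clopper-Pearson) at 95%, and intervals and limits (3 counts for a count of 0) cover counting error only, as PCR copies are not independent molecules. Alternatives were a pseudocount of 10 CPM, no filter on low genes, TPM, a filter on cells (2500 genes, 100000 counts, 3% mitochondrial counts), cell types by marker score, resolutions of 0.4 and 1.2, means of collections, single run dates, detection from 10 counts and thinning to 100000 counts. Leaving out single collections or the cell highest in Kcnj15, the dates on which both genotypes were collected, and detection from 100 CPM were added after the data were seen. The scripts were tested on simulated data. Python 3.11.15, numpy 2.4.6, pandas 2.3.3, scipy 1.17.1 and matplotlib 3.10.9 were used.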

Additional observations from a re-analysis of the deposited data

Results flagged for a closer look

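In IMC-like cells, the ratio of Slc26a4-/- to Slc26a4+/+ cells had opposite signs on the 2 run dates that held both genotypes. For Kcnj10 the log2 ratio was 0.14 on run date 2 and -0.17 on run date 4. For Kcnj13 it was -0.91 on run date 2 and 2.58 on run date 4. The difference between the dates was not tested, and the dates also differ in depth and collection dates.

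Kcnj11 had 76 estimated counts in the transcript files, where the gene table holds 0. They lay in 6 cells, with 67 of them in 2 RC-like cells, and no reason for the gap between both tables is given in the sources used here.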

How the results depend on the processing

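Of the alternative values computed for 23 results, 16 had another direction than the value reported or were 0. This count compares signs only, and a value of the same sign can still differ much in size. Shares of cells and counts of members cannot turn negative, so a fall from 70.6% to 23.53% (below) counts as the same direction. The numbers in the titles name cells and pair none. On the dates on which both -/- and +/+ cells were collected, the mean log2 ratio was -0.30 for Kcnj10 and 0.36 for Kcnj13 in IMC-like cells (2 dates), and in pendrin cells (1 date, 1 cell of each) 2.80 for Kcnj10, -1.49 for Kcnj16 and 0 for Kcnj15, which had no count in either cell. Counts of members past 2-fold changed from 0 to 1 for -/- IMC-like cells and from 1 to 2 for +/- pendrin cells without a filter on low genes, and from 1 to 0 for +/- IMC-like cells with a pseudocount of 10 CPM. The shares of +/+ cells with both Kcnj10 and Kcnj16, reported from 1 count as 70.6% of RC-like, 34.1% of IMC-like and 52.2% of SC-like cells, fell to 35.3%, 2.44% and 21.7% from 10 counts, to 25%, 7.32% and 23.8% after thinning, and to 23.53%, 0% and 8.70% from 100 CPM. The log2 difference of Kcnj10 between IMC-like and RC-like cells lay between 3.51 and 4.6 under every alternative run, and that of Kcnj16 between RC-like and IMC-like cells fell from 7.55 to 3.84 with cell types by marker score and 4.39 at a resolution of 1.2. For -/- over +/+ IMC-like cells, Kcnj13 changed sign at resolutions of 0.4 (-0.13) and 1.2 (-0.02). With single collections left out, -/- over +/+ ran from 0.16 to 0.41 for Kcnj10 and from -0.13 to 0.64 for Kcnj13 in IMC-like cells, and from 1.19 to 1.75 for Kcnj10 and from 1.15 to 1.86 for Kcnj16 in pendrin cells. The same ratios of +/- cells ran from -0.23 to -0.07 and from 0.55 to 1.24 in IMC-like cells and from -1.90 to 0.57 and from -1.34 to 1.31 in pendrin cells. The causes of these changes were not tested. Cells of a collection may share a mouse, so their spread understates the error, and with 1 sample per genotype these ratios describe the cells sampled. The 20 shallow cells limit detection of low members.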
